A study of Mus musculus with 2 samples.

Results

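The cytosolic ribosomal protein genes are the protein-coding genes whose products, with the ribosomal RNAs, make up the small and large subunits of the ribosome that translates nuclear-encoded messages. They were taken by symbol: Rpl or Rps followed by a number, with a few permitted suffix letters, together with Rpsa and the stalk genes Rplp0, Rplp1 and Rplp2. This gave 83 of the 55536 annotated genes in the deposited gene models, with the same 83 in both libraries: 32 small-subunit genes, 48 large-subunit genes and 3 stalk genes. The rule uses names and no measured value. It also admits tissue-restricted or divergent paralogs, namely Rpl3l, Rpl10l, Rpl39l, Rpl22l1, Rpl7l1 and Rps27l, and it leaves out genes such as Fau, Rpl36al and Rack1, whose products are also part of the ribosome or bound to it.

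The data are 2 long-read RNA sequencing libraries of mouse hippocampus, in which 1 read is meant to span 1 whole transcript. Both came from female mice of the F1 hybrid strain B6CASTF1/J at 14 days of age, each from the pooled RNA of 3 animals, starting from 2 µg. The sample fields number different animals for the 2 pools, while a second text field of replicate 2 repeats the numbers of the first pool, so the libraries were taken as separate pools on the first field alone. Both belong to the same group, with no second genotype, treatment, age or tissue, so the one comparison possible is between replicate 1 and replicate 2. A p-value from it sets the difference between these 2 libraries against counting error, with reads as the unit, and compares no condition. It does not measure the spread between replicate libraries.

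Ribosomal protein messages are short, abundant and made in every cell. Many of them begin with a run of pyrimidines at the cap, the terminal oligopyrimidine tract, through which their translation follows growth signals. Their genes have several introns, many of which carry small nucleolar RNAs, and the mouse genome holds a very large number of processed pseudogenes, intronless copies made from these messages by reverse transcription. 

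Replicate 1 held 1168366 reads and replicate 2 held 888704, so that 1 read was worth 0.856 and 1.13 CPM (reads scaled to a common library total). ERCC spike-in RNAs took 20091 and 10259 of these reads. The 4 Y-linked genes examined had 0 reads in both libraries. Markers of hippocampal fields summed to 1253 and 1276 CPM in replicates 1 and 2, pan-neuronal markers to 3584 and 4054, astrocyte markers to 2941 and 4699, and markers of myelinating oligodendrocytes to 4630 and 6234. Microglial markers summed to 270 and 304 CPM, endothelial ones to 302 and 334, and blood ones to 572 and 344. Of the muscle genes, Acta1 had 13 and 12 reads and Ckm 0. The 4 choroid plexus markers had 109 reads in replicate 1 and 1 read in replicate 2, with Kcnj13, Clic6 and Folr1 at 0 in the second. By the test described with the library comparison, 5 of 5 astrocyte and 3 of 4 oligodendrocyte markers were higher in replicate 2, and 4 of 4 blood and 4 of 4 choroid plexus markers higher in replicate 1. With the trend on transcript length taken out, as described there, these counts were 4, 2, 0 and 4. Their part in the differences of the ribosomal protein genes was not tested.

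Several short sequences carry the results on splicing and on copies, and they are given in transcript direction, from GENCODE transcripts of mouse build GRCm38. At Rpl7l1 (chr17:46778037-46778066, minus strand) the capitals mark 5 bases that a frequent unannotated junction adds behind the annotated end of the exon, and the lower-case letters after them are annotated as intron in Rpl7l1-201.
Rpl7l1 donor: ctagagcaggagcagGTGAGgcgagtgtgt
At Rpl22l1 (chr3:28805532-28806514, plus strand, read across intron 1) the capitals mark the 3 bases by which Rpl22l1-201 and Rpl22l1-206 differ.
Rpl22l1 acceptor: aacatggcgccgCAGaaagacaagaag
At Rps24 an annotated small exon (chr14:24494052-24494069, plus strand) was followed in the reads by 18 further bases (chr14:24494070-24494087), printed in capitals.
Rps24 annotated exon: aaatgaaatacctagcag
Rps24 exon extension: GTACTGCCATTGGGCACG
Finally, a stretch of Rpl3 (chr15:80082515-80082544, minus strand) is set beside the same stretch of its processed pseudogene Rpl3-ps1 (chrX:13202613-13202642, plus strand), with the single differing base in capitals.
Rpl3: gggcttcctgcctcgCaagcgcagcagccg
Rpl3-ps1: gggcttcctgcctcgAaagcgcagcagccg

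Reads named for the 83 genes numbered 18600 in replicate 1 and 9478 in replicate 2, or 1.59% and 1.07% of all reads. Their summed level was 13292 ± 3716 CPM (SD, n = 2). The large subunit contributed 8336 ± 2267 CPM, the small subunit 4207 ± 1342 CPM and the stalk 749 ± 106 CPM. All 80 genes with reads were read in both libraries. The remaining 3 genes, Rpl3l, Rpl10l and Rpl39l, had 0 reads in both, which allows up to 2.57 CPM in replicate 1 and 3.38 CPM in replicate 2 from counting error alone. Rpl3l is the paralog of Rpl3 known from striated muscle, and Rpl10l and Rpl39l are paralogs known from the testis.

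The levels of the 80 genes differed widely within a library: 30 of them reached 200 CPM in replicate 1 and 9 in replicate 2, and the 10 highest held 35.6% and 39.7% of all ribosomal protein reads. High genes are described first. Rpl41, which encodes the smallest ribosomal protein (coding length 75 nt), reached 805 and 473 CPM. Rpl3, whose product lies near the peptidyl transferase centre, had 755 and 790 CPM. Rplp0, the base of the stalk that recruits translation factors, had 448 and 471 CPM.

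Below these came Rpl4 (425 and 416 CPM), Rpl5 (401 and 287 CPM), which carries 5S ribosomal RNA, and Rpl13 (400 and 270 CPM). Rpl35 had 425 and 226 CPM, Rpl6 346 and 241 CPM, Rpl19 296 and 181 CPM, Rpl38 282 and 187 CPM and Rps14 302 and 161 CPM. Only Rps14 among the 12 highest belongs to the small subunit. The median over small-subunit genes with reads was 145 CPM and over large-subunit genes 128 CPM. The order of the genes was close to the same in both libraries: across the 80 genes the Spearman correlation of the levels was 0.95, a description over genes that share 2 libraries.

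At the bottom, Rpl10 had 9 and 6 reads (7.70 and 6.75 CPM), Rps24 had 17 and 13, Rpl17 had 22 and 12, and Rpl30 had 30 and 16. The next 4 were Rps27l with 48 and 10 reads, Rps20 with 56 and 13, Rpl35a with 58 and 13, and Rps12 with 51 and 22. Rpl10 completes the large subunit late in its maturation, Rpl17 lies at the peptide exit tunnel, and Rps20 lies in the head of the small subunit. Reads under the names of near-identical copies of these genes are given further on.

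**Figure D1:**
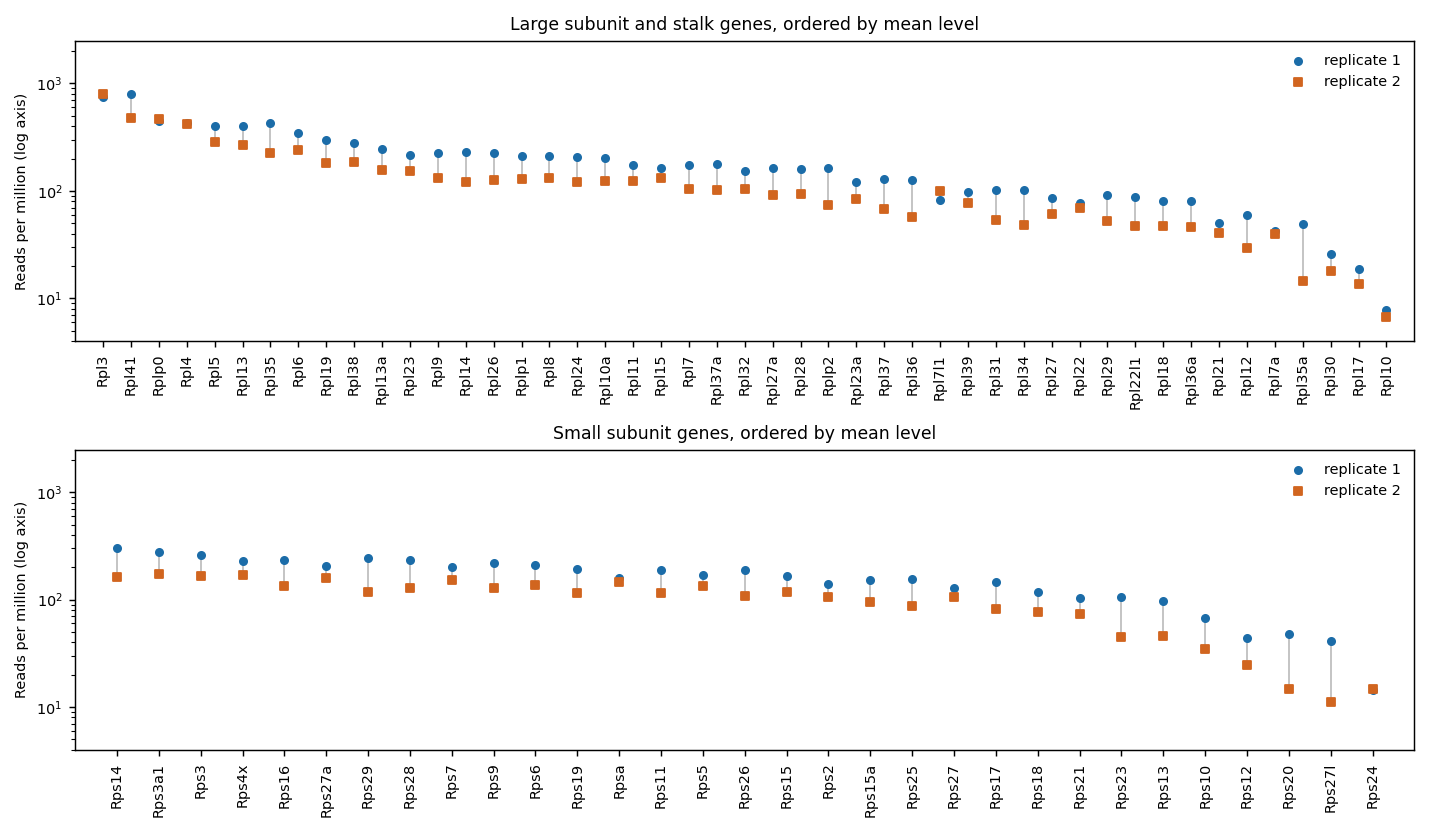
Levels of ribosomal protein genes with reads, in CPM on a log axis, with 1 circle for replicate 1 and 1 square for replicate 2 and a line joining them. Large-subunit genes shown run from Rpl3 at 755 and 790 CPM to Rpl10 at 7.70 and 6.75 CPM, and in most genes replicate 1 lies above replicate 2.

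The family was lower in replicate 2 almost throughout. Of the 80 genes, all of which passed the minimum of 10 reads, 76 had a lower CPM in replicate 2 and 4 a higher one. Each gene's split of reads was tested against the split of the library totals (exact binomial, two-sided), with Benjamini-Hochberg adjustment over all 11681 annotated genes tested. By this test 56 of the 80 were higher in replicate 1 and 0 in replicate 2 (24 did not pass), while 5.24% of all genes tested were called higher in replicate 1 and 6.25% higher in replicate 2. The median log2 ratio of replicate 2 over replicate 1, on CPM + 1, was -0.68 over the family and 0.11 over all genes tested. Both subunits shared this: 22 of 32 small-subunit genes, 32 of 45 large-subunit genes and 2 of 3 stalk genes were called, with median log2 ratios of -0.69, -0.68 and -0.71. With TMM-scaled totals 63 of the 80 were higher in replicate 1 and 0 in replicate 2, beside 6.89% and 3.17% of all genes tested.

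Among genes with at least 50 reads, 3 of the 5 that differed most are also among the 8 lowest. Rps27l, a p53-responsive paralog of Rps27, went from 41.1 to 11.3 CPM (log2 ratio -1.78, adjusted p = 0.00109 by the exact binomial test). Rpl35a went from 49.6 to 14.6 CPM (-1.70) and Rps20 from 47.9 to 14.6 CPM (-1.65). Rps23, at the decoding centre, went from 106 to 45.0 CPM (-1.22), and Rplp2, a stalk protein, from 163 to 73.1 CPM (-1.15).

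In the other direction the ratios were small. Rpl7l1 had 96 reads in replicate 1 and 88 in replicate 2, and its CPM was higher in the second (log2 ratio 0.27, adjusted p = 0.508). Rplp0 and Rpl3 had ratios of 0.07 and 0.07, Rpl4 of -0.03 and Rpl7a of -0.09. None of these 5 passed the test. Rpl3, Rplp0 and Rpl4 have leading transcripts of 1351, 1358 and 1538 nt, while the median over the family is 777.5 nt.

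Transcript length moved with the difference. Over the genes of all kinds, the ratio was higher for longer leading annotated transcripts, and the ERCC spike-ins, which contain no mouse RNA, were lower in replicate 2 as well. From 300 to 500 nt the median log2 ratio was -0.82 over 12 ribosomal protein genes and -0.66 over 190 other genes, with 0 spike-ins. Between 500 and 700 nt it was -0.77 over 20 ribosomal protein genes, -0.61 over 284 other genes and -0.88 over 8 spike-ins. Between 700 and 1000 nt it was -0.67 over 26 family members, -0.53 over 567 other genes and -0.48 over 8 spike-ins. Between 1000 and 1500 nt it was -0.64 over 14 members, -0.29 over 1136 others and -0.43 over 14 spike-ins. Above 1500 nt it was -0.22 over 8 members and 0.19 over 8284 others, and there only 2 spike-ins were read, one with 30 and 0 reads and one with 7 and 5. One spike-in of 961 nt also stood apart, with 122 reads in replicate 1 and 0 in replicate 2. Of the 80 genes, 58 have a leading transcript of at most 1000 nt, against a median of 2807 nt over all genes tested.

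With the trend of all genes on length taken out, 6 of the 80 were called higher in replicate 1 and 3 higher in replicate 2, beside 1.94% and 1.93% of all genes tested (3.87% in either direction), and the family's median log2 ratio was -0.076. The 6 included Rpl35, Rplp2, Rps3, Rps15a and Rps20, and the 3 were Rpl3, Rplp0 and Rps27. Rps27 had 128 and 106 CPM, lower in replicate 2, and its direction turned only relative to the trend. Of the 6, 3 rest on an annotated length that the coding part does not approach: the leading transcripts of Rps15a, Rps20 and Rps3 are 5179, 3706 and 1908 nt long, with 390, 357 and 729 coding nt. The files give annotated lengths and not read lengths. With the trend taken over coding length instead, an alternative chosen after seeing the data, 21 of the 80 were higher in replicate 1 and 0 in replicate 2, beside 2.59% and 3.32% of all genes tested (5.91% in either direction).

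**Figure D2:**
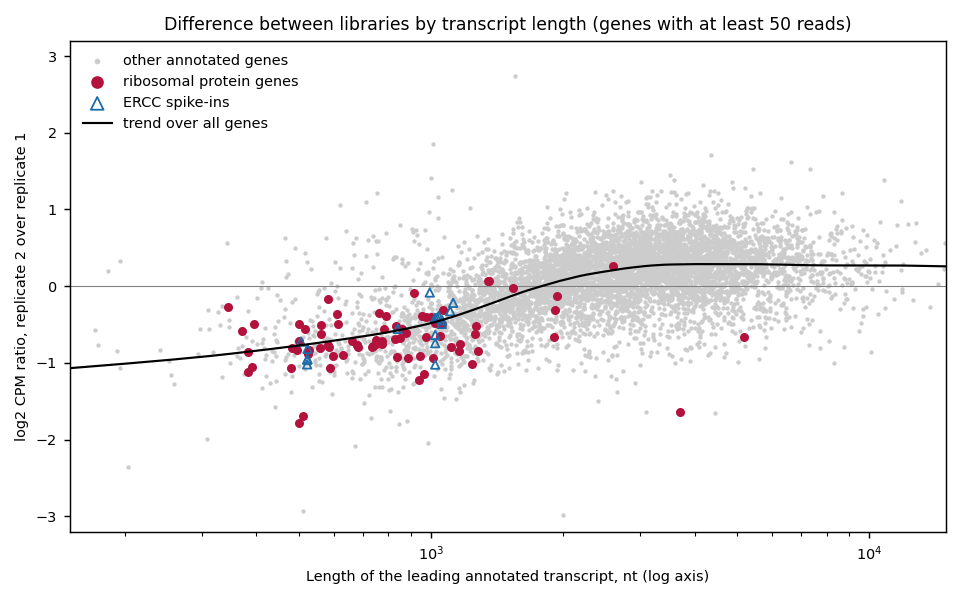
Log2 CPM ratio of replicate 2 over replicate 1 against the length of the leading annotated transcript (log axis), for genes with at least 50 reads: grey points are other annotated genes, filled red points ribosomal protein genes, open triangles ERCC spike-ins, and the line the trend over all genes. Most ribosomal protein genes lie below 1000 nt and below 0, along the line and among the spike-ins, and the points for Rps20 and Rps15a at 3706 and 5179 nt lie far below it. The spike-in with 122 and 0 reads, and any gene beyond the axes, is not drawn.

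Other genes of translation were compared by lists. Of 4 genes for cytosolic ribosomal proteins outside the name rule, all 4 were higher in replicate 1 (median log2 ratio -0.67), among them Fau (170 and 102 CPM), Rpl36al (138 and 67.5 CPM) and Rack1 (121 and 78.8 CPM). Rps4l, a paralog annotated as a pseudogene, had 26 and 8 reads and did not pass. Of 78 mitochondrial ribosomal protein genes, which serve the separate ribosome of that organelle, 21 were higher in replicate 1 and 0 in replicate 2 (median -0.59), led in level by Mrpl30 (260 and 140 CPM), Mrps33 (199 and 88.9), Mrpl50 and Mrps17 (151 and 72.0). Of 8 elongation genes, Tpt1 (315 and 182 CPM) and Eef1b2 were higher in replicate 1 and Eef2, the translocase (236 and 431 CPM), in replicate 2. Eif5a and Eef1a1 did not pass. Of 30 initiation genes 2 were higher in replicate 1 and 5 in replicate 2, with a median of 0.12; the highest were Eif4g2, Eif4a2, Eif4h and Eif1. Of 24 ribosome assembly genes 1 was higher in replicate 1 and 0 in replicate 2, with a median of -0.08 and Npm1, Ncl, Nop10 and Nop56 as the highest. Of 6 genes that bind nascent chains or ribosomes, Naca and Btf3 were higher in replicate 1 and 0 in replicate 2, and Hspa8 and Serbp1 did not pass. With the length trend taken out, 0 of the 4 genes outside the name rule were called (median -0.14), and 9 of the 78 mitochondrial ones were higher in replicate 1. The median leading transcript was 662 nt in the first of these lists, 1302 nt in the mitochondrial one and 2634 nt in the initiation list.

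Reads were next sorted by their introns. TALON, the tool that built the gene models, calls a read known when its chain of introns equals that of an annotated transcript, and an incomplete splice match when it equals part of one. In the family 85.7% of reads in replicate 1 and 84.2% in replicate 2 matched an annotated transcript, compared with 71.6% of the reads of other protein-coding genes and 79.0% of those with leading transcripts of at most 1000 nt, as means of both libraries. Incomplete splice matches made up 12.0% of family reads, unannotated splice sites 1.25%, and new combinations of annotated sites 0.70%. Shares of reads weight each gene by its level. Over the 60 genes that had 50 reads or more in both libraries, the median annotated share was 94.3%, above the share of family reads.

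The complete intron chain of the leading coding transcript was present in 76.2% of family reads in replicate 1 and 74.8% in replicate 2, with exact 95% binomial intervals of 75.6 to 76.8% and 73.9 to 75.7%, which cover counting error only. In other protein-coding genes it was present in 64.5% of reads, as a mean, and in those with leading transcripts of at most 1000 nt in 69.4%. Reads holding only a 3' part of the chain made up 13.3% of family reads, against 6.33% in other coding genes and 7.67% in short ones. But the median over the 60 genes was 2.64%, and no such median was taken over other genes. Reads with no intron at all made up 1.57% in the family, 10.1% in other coding genes and 7.13% in short ones. These shares count reads by gene name. A further 6466 reads with no intron, over both libraries, stood under the names of near-identical copies described further on. They are not in the family's shares. Gene by gene, the median complete share over the 60 genes was 86.1%, and Rps29 had the highest at 99.3%.

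**Figure D3:**
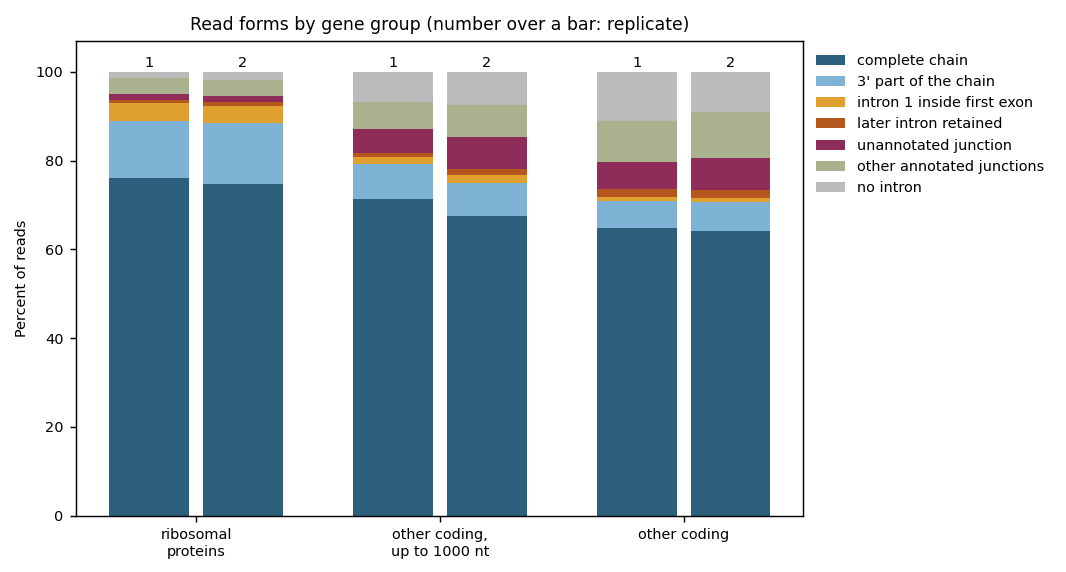
Share of reads in each form, in percent of the reads of multi-exon genes, for ribosomal protein genes, other coding genes with leading transcripts of at most 1000 nt, and all other coding genes; each pair of bars is replicates 1 and 2. Complete chains took the largest share in every bar, and ribosomal protein genes had the smallest shares of unannotated junctions and of reads with no intron. Reads named for near-identical copies, nearly all with no intron, are not counted in the bars of ribosomal protein genes.

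Rpl5 was read mainly as a 3' part of its transcript: Rpl5-204, annotated as a 3-exon retained-intron transcript of 1024 nt, held 342 of 469 and 172 of 255 reads, while the coding Rpl5-201 with 8 exons held 105 and 67. The 2 introns of Rpl5-204 are also the last introns of Rpl5-201, so a read of Rpl5-201 that stopped short would match Rpl5-204 as well. Rpl23 (35.1 ± 4.01% 3' parts, SD, n = 2), Rpl7 (25.8 ± 3.43%), Rps21 (24.8 ± 10.6%) and Rpsa (23.3 ± 3.26%) came next, and an unannotated 3-exon model of Rpl23 alone held 32 and 23 reads.

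The ends of the models limit what can be said of such reads. Unannotated models of the family numbered 736, with a model read in both libraries counted once in each. Of these, 96.2% had a 5' end that lay exactly on an annotated exon edge, and 98.8% of their reads sat on such models. The files give model ends and no read ends, so a molecule that began inside an exon and one that began at its edge cannot be told apart.

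An intron of the leading coding transcript lay inside an exon of the model in 5.03% of family reads in replicate 1 and 4.99% in replicate 2 (936 and 473 reads), compared with 3.71% in other coding genes and 3.92% in short ones. The order turned when introns of any coding transcript were counted, with 6.42% in the family, 8.31% in other coding genes and 7.84% in short ones. In the family, the reads of the first count were concentrated on the first intron. Intron 1 was among the retained introns in 83.8% and 81.6% of them, while in other coding genes this was 23.6% and 21.5%. The genes were not matched by number of introns, and intron 1 is a larger part of the introns where a gene has few. Over the 76 first introns with at least 50 reads, 1162 of 23042 reads retained the intron (5.04%), and over 261 later introns 533 of 97461 did (0.547%). A share of at least 10% was reached by 18 of the first introns and 6 of the later ones, and 28 of the first and 126 of the later ones had 0 retaining reads.

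Rpl27 had the highest share, with intron 1 (chr11:101442457-101442722, 266 nt) inside an exon in 31 of 97 reads in replicate 1 and 23 of 52 in replicate 2. Rpl36 followed with 31.0% and 37.3%, Rps21 with 30 of 100 and 17 of 44 reads, and Rpl7a, with few reads, 12 of 42 and 10 of 35. Rpl8 had 26.3% and 23.1%, Rps6, the target of the S6 kinases, 23.2% and 28.1%, Rps15 16.9% and 26.4%, Rps2 16.7% and 20.4%, and Rps9 42 of 233 and 14 of 108 reads. All 9 of these were above 10% in both libraries. Several are annotated transcripts: Rpl27-202 held 31 and 20 reads, Rpl8-202 60 and 25, Rps6-204 54 and 31, and Rps9-204 42 and 14. The 6-exon model of Rpl6 that holds intron 1, with 59 and 30 reads, is not annotated.

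For a first intron the same limit applies, since a model that starts in exon 1 and holds intron 1 has the same junctions as a read that started in intron 1 or exon 2. A further count took only retained introns that have a spliced junction upstream in the same model, a definition chosen after seeing the data. The share was then 0.624% in replicate 1 and 0.760% in replicate 2, against 2.15% in other coding genes and 1.39% in short ones. A retained intron 1 with no junction before it is left out by definition, and most of the family's retained reads held intron 1. The order of the groups on this count thus depends on the definition. On this count Rpl12 intron 4, which hosts Snora65, led with 7 reads against 60 spliced in replicate 1 and 3 against 23 in replicate 2. Rpl10a intron 3 followed with 17 against 198 and 7 against 91. Introns hosting a small nucleolar RNA lay in 30 of the 83 genes. Among later introns, 0.370% of reads retained one with such a guest and 0.591% one without, but the median over introns went the other way, 0.252% over 48 with a guest and 0.042% over 213 without, so no direction is given.

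**Figure D4:**
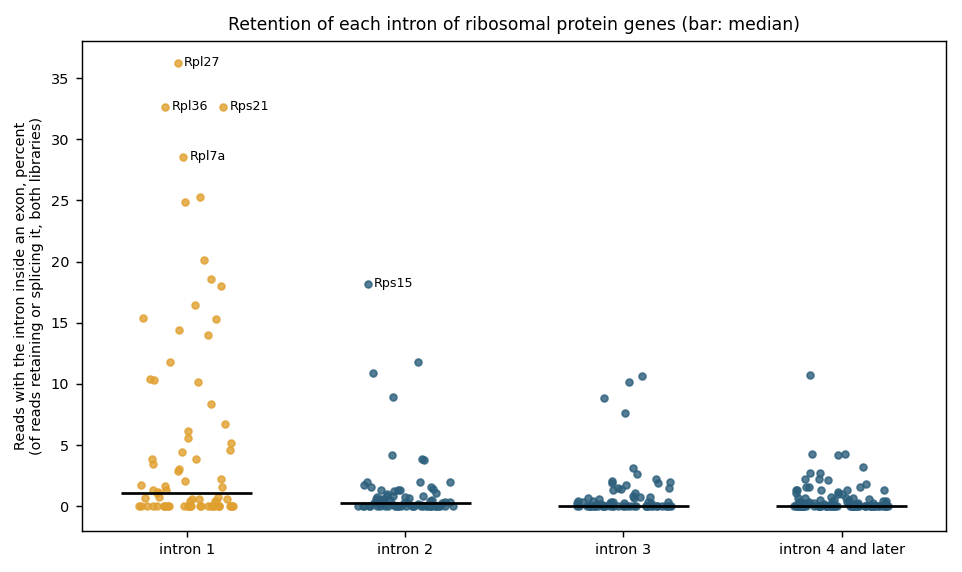
Share of reads that hold each intron inside an exon, in percent of the reads that retain or splice it (both libraries together), for 337 introns with at least 50 reads; each point is 1 intron and bars are medians. Points above 26% are all first introns (Rpl27, Rpl36, Rps21 and Rpl7a), and the highest later intron is intron 2 of Rps15 at 18.2%.

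Unannotated junctions were rare. They were in 1.44% of family reads in replicate 1 and 1.47% in replicate 2 (267 and 139 reads), against 6.52% in other coding genes and 6.20% in short ones. There were 188 of them in 69 genes, of which 124 had 1 read and 12 had at least 5, and 44 junctions in 30 genes were seen in both libraries. Of those 44, 34 used an unannotated donor with an annotated acceptor and 7 the reverse. The site was within 10 nt of an annotated one in 21 of the 41 shared junctions with 1 new end.

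Rpl7l1 held the junction with the most reads and, among genes with 50 or more reads per library, the largest share of such reads, 48 of 96 in replicate 1 and 33 of 88 in replicate 2. Rpl7l1 is a paralog of Rpl7. Its last intron was joined from a donor 5 nt downstream of the annotated one in 42 and 26 reads, while the annotated donor was used in 51 and 59. In the sequence printed first, the annotated intron begins at the capital GT and the unannotated one at the lower-case gc after the capitals. A 7-exon unannotated model of Rpl7l1 held 31 and 22 reads. The stop codon lies upstream, so the added bases are untranslated. Lower shares among such genes were those of Rplp2 (12 of 191 and 3 of 65 reads), Rpl22, Rpl11, Rpl37a, Rps6 and Rpsa, the last 5 with at most 7 reads in a library. Below that minimum, a single junction of Rpl17 was in 8 of 22 and 3 of 12 reads, and Rps24 follows.

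Rps24 is known for small alternative exons near its 3' end that change the end of the protein or its untranslated region. Only 30 reads of it were present. The junction that follows the extended exon printed earlier was in 7 of 17 reads in replicate 1 and 6 of 13 in replicate 2, and it is not in the annotation. None of the 12 annotated Rps24 transcripts had a read except Rps24-210, with 4 reads in replicate 1.

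Minor isoforms were spread over many genes. The family has 498 annotated transcripts, of which 225 had reads and 173 had reads in both libraries. A pair of annotated first exons or splice sites were used at similar levels in a handful. Rpl38-204 held 168 and 80 reads and Rpl38-201 125 and 70, with the same coding sequence and a different end of the first exon. Rpl28-202 held 97 and 38 reads and Rpl28-201 86 and 44, the former with intron 1 of Rpl28-201 inside its first exon. Intron 1 of the leading coding transcript, as counted earlier, was retained in 0 reads of Rpl28. The limit given for first introns applies to this pair as well. In Rpl22l1, a paralog of Rpl22, Rpl22l1-206 held 50 and 25 reads and Rpl22l1-201 33 and 10. The latter keeps the 3 bases printed earlier, and its coding length is 366 instead of 363 nt.

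Rpl31 was split between Rpl31-203 (37 and 14 reads), Rpl31-201 (30 and 6) and Rpl31-202 (29 and 22). Rpl30-201 and Rpl30-202 held 17 and 9, and 11 and 6 reads. In Rpl22 most reads, 56 of 90 and 39 of 61, were given to Rpl22-205, annotated as a processed transcript without a coding sequence. The ends and length (581 nt) of Rpl22-205 match the intron chain of the leading coding transcript, whose intron 1 was spliced in 56 and 41 reads. These reads thus do not set a non-coding form apart from a coding one. Rps27a, which encodes a ubiquitin fusion, had 50 and 54 reads with no intron, 20.7% and 38.3% of its total. Transcripts annotated as targets of nonsense-mediated decay, a route known in human cells to act on RPL3 and RPL12, numbered 25, and the 8 of them with reads made up 0.0825% of family reads as a mean, against 0.344% in other coding genes. Rpl10a-203 had the most, with 4 and 3 reads.

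The share of a gene's reads on its leading transcript was tested between libraries with Fisher's exact test. Of 73 family members with 20 or more reads per library, 0 passed after adjustment over all 6607 genes tested, of which 0.711% did. An unadjusted p below 0.05 was found for 6 of the 73, beside 468 of all 6607 genes. The lowest adjusted p was 0.144, for Rps18, with 133 of 138 leading reads in replicate 1 and 56 of 68 in replicate 2. With a minimum of 50 reads 0 of 60 passed, beside 1.42% of all genes, and over annotated transcripts 0 of 72, beside 0.106%. Rps27a had 161 of 242 and 73 of 141, and Rps15 147 of 193 and 65 of 104. Among 22 annotated cassette exons of the family, each with 20 or more reads per library, 0 passed Fisher's exact test after adjustment. The adjustment was over 4489 exons, of which 0.0223% passed. An unadjusted p below 0.05 was found for 0 of the 22, beside 137 of all 4489 exons. With a minimum of 10 or 50 reads 0 passed as well, beside 0.0158% and 0.0451% of all exons. Exons of Rpl10a, Rpl13a, Rpl18, Rps10 and Rps25, 1 of Rps9 and 1 of Rps12 were in all reads of both libraries, and those of Rpl27, Rpl37a, Rps18, Rps27 and the other of Rps12 in none; the exon of Rpl7l1 was skipped in 1 read. Only 3 of the 22 had more than 1 read on the less used form: exon skipping in Rpl14 in 3 of 266 and 0 of 104 reads, and inclusion of rare exons in Rps19 (3 of 216 and 4 of 98 reads) and Rps9 (5 of 251 and 2 of 110).

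Reads of near-identical copies were counted under other gene names. Transcripts of pseudogenes and other genes without introns were compared with the leading coding transcript of each member by blastn. At 90% identity over 70% of the copy, 1145 copies were found for 80 of the 83 genes, and 194 copies of 70 genes had reads. Together these held 4216 reads in replicate 1 and 2283 in replicate 2, which is 18.5% and 19.4% of the reads on members and copies. Of these reads 99.5% had no intron. Reads lay mostly on the closest copies: of 135 copies at least 99% identical to a member 68.1% had reads, and they held 89.9% of all copy reads, while of 515 copies between 90% and 95% identical 5.63% had any.

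For 7 genes the copies held more reads than the gene itself in both libraries. Rpl10, the lowest gene by name, had 9 and 6 reads, while its copies had 94 and 36; 93 and 36 of those were on Rpl10-ps3, an intronless gene on chromosome 9 that is annotated as protein-coding and is 100% identical over the aligned part. Rpl35a had 58 and 13 reads and its copies 211 and 113. Rpl17 had 22 and 12 and its copies 113 and 49. Rpl21 had 59 and 36 and its copies 250 and 120. The others were Rps2 (165 and 95, copies 316 and 175), Rpl30 (30 and 16, copies 50 and 17) and Rpl37 (150 and 60, copies 180 and 74).

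The copy with the most reads was Rpl3-ps1, with 350 and 294, beside 882 and 702 for Rpl3. Over 1210 compared bases it differs from Rpl3-201 at 2, C137A and T866C, counted from the first base of Rpl3-201 with the base of Rpl3 first. Rps2-ps13 had 280 and 162 reads and differs from Rps2-201 at 7 of 882 bases. Gm15500, a copy of Rpl5, had 276 and 146 reads, Gm14303, a copy of Rps29, 243 and 124, and Rps19-ps6 214 and 105. The files hold no alignments, so from which locus such a read arose was not tested. With copies added to their members, an alternative chosen after seeing the data, Rpl10 stood at 88.2 and 47.3 CPM in place of 7.70 and 6.75. The SD of log2 reads over the genes went from 1.22 to 1.01 in replicate 1 and from 1.30 to 1.14 in replicate 2.

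**Figure D5:**
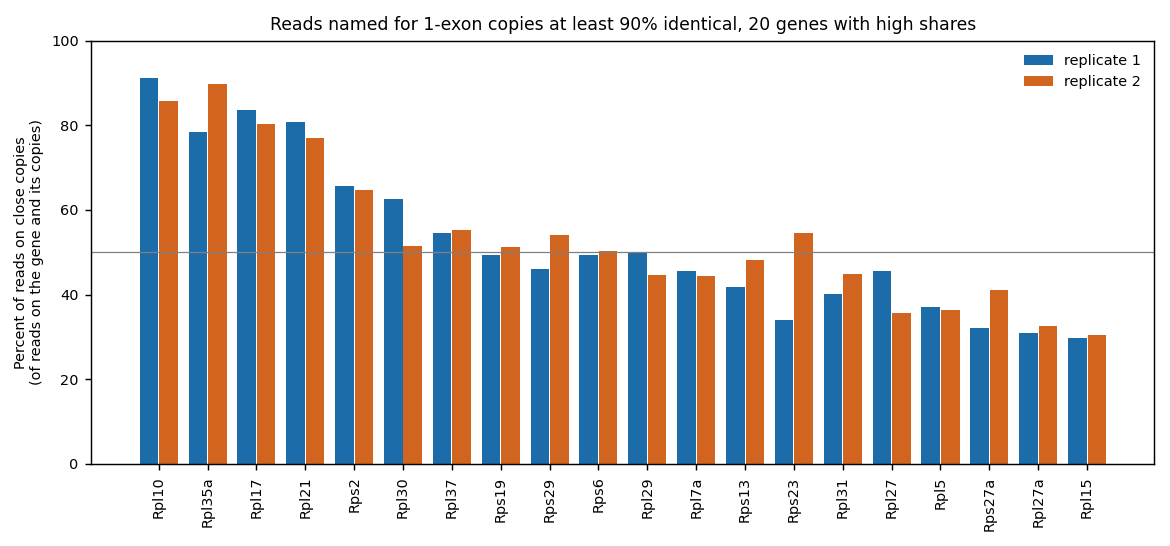
Reads named for close copies, in percent of the reads on a ribosomal protein gene and its copies, for 20 genes with high shares; 1 bar for each library, with a line at 50%. Rpl10, Rpl35a, Rpl17 and Rpl21 lie above 75% in both libraries, and the bars of replicates 1 and 2 are close for most genes.

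Exons of 35 members overlap those of another gene, in 15 cases on the opposite strand, and in 10 of these the opposite-strand gene had at least 10 reads, such as Vps52 beside Rps18 with 133 and 131. No source used here states how strand was assigned, so these members' counts are uncertain to that extent.

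The start sequences of the family were looked up in RefSeq promoters of build GRCm38.p6, where 63 of the 83 genes matched. A C followed by at least 4 letters that are C or T, with that C within 5 nt of the annotated start on the transcribed strand, was in 31 of 75 promoters of the family (41.3%) and in 18.3% of all 32851 promoters. The 5 highest genes with such a run are shown from 15 nt before the start, with the match in capitals from the first such C in the window. In Rpl35, Rpl38 and Rpl14 further C or T letters stand directly before the capitals. The genes are Rpl35 (chr2:39005117-39005146, minus strand), Rpl19 (chr11:98026695-98026724, plus), Rpl38 (chr11:114668565-114668594, plus), Rpl13a (chr7:45128731-45128760, minus) and Rpl14 (chr9:120571502-120571531, plus).
Rpl35 start: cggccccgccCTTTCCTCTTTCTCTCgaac
Rpl19 start: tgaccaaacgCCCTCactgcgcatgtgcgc
Rpl38 start: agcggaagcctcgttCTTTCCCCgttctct
Rpl13a start: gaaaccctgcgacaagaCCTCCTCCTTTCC
Rpl14 start: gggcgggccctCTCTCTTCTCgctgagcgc
A match is a description of these letters, and the models' own starts, being annotated ones, do not bear on it. The start shown for Rpl19 is that of Rpl19-202, which held 5 and 4 reads. The leading Rpl19-201, which begins downstream at 98026924, held 304 and 137.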

How the data were processed

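Long-read RNA sequencing of 2 libraries of female mouse hippocampus was analysed from the deposited transcript tables and gene models. Read counts per transcript model were deposited by the authors, unnormalized, with models on build mm10 and GENCODE M21 annotation, per the file headers. The gene models credit their unannotated transcripts to TALON; the aligner, versions and read filters are not stated there. Totals were 1168366 and 888704 reads. Counts carry no molecular identifiers, so intervals and floors (3 reads) cover counting error only. CPM was computed over all reads, spike-ins included, and ratios on log2(CPM + 1). With 1 group there is no replicated contrast, so edgeR's quasi-likelihood test was not used; genes with at least 10 reads had exact binomial tests, and transcript and exon shares Fisher's exact tests (scipy 1.17.1), with Benjamini-Hochberg adjustment over everything tested, threshold 0.05. Both were tested on simulated data drawn with counting error alone, without a length trend or further spread between libraries. Alternatives used edgeR 4.0.16 (TMM) and DESeq2 1.42.0 size factors, other minimums and pseudocounts, and a lowess length trend (span 0.3, genes with at least 50 reads). Copies were sought with blastn 2.17.0+. The members, lists and tests were chosen with earlier results of these data known. Genes named are those with 0 reads, the 12 highest, the 8 lowest, the 5 largest ratios in each direction, the 8 largest shares of each read form, those with tested cassette exons, the 5 most read unannotated spliced models, the paralogs and the 4 highest of each list. Copies, single introns, 3' parts, other isoforms, the lowest p-values and the overlapping gene were named after their values were seen. Some genes are not reported individually here; they are counted in the totals, medians and tests.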

Additional observations from a re-analysis of the deposited data

How the results depend on the processing

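Family members called between libraries numbered between 52 and 63 (56 as reported) under TMM scaling and DESeq2 size factors. The same range held with no minimum of reads, with a minimum of 50 reads and for annotated transcripts only. Of all genes tested, 11.5% were called as reported, 10.1% with TMM scaling and 10.2% with DESeq2 size factors. With no minimum the share was 6.07%, with a minimum of 50 reads 22.1% and for annotated transcripts only 12.0%. With the length trend removed 9 members were called, beside 3.87% of all genes tested. With the coding-length trend removed, an alternative chosen after seeing the data, 21 members were called, beside 5.91%. The median log2 ratio of -0.68 became -0.076 with the length trend removed. TMM scaling shifted all genes by -0.13 and put the family's median at -0.81. The annotated share, 84.2 to 85.7% when either library was left out, became 86.4% over models with at least 2 reads. The share with an unannotated junction, 1.44 to 1.47% when either was left out, became 0.655% for sites over 10 nt from an annotated one and 0.899% for junctions in both libraries. The retained-intron share, 4.99 to 5.03%, became 4.71% in spliced models, 6.42% for introns of any coding transcript and 0.692% where a junction lies upstream. It lay above other coding genes as reported (3.71%) and below them on the last 2 counts (8.31% and 2.15%). The last count leaves out by definition a retained intron 1 with no junction before it. The shares move because each alternative redefines what is counted. The summed level ran from 10665 to 15920 CPM when either library was left out and was 16381 CPM with close copies, added after seeing the data. The family's median ratio kept its sign under the alternatives run, while Rps27, lower in replicate 2, was called higher there with the length trend removed. No paired analysis was possible because both libraries belong to 1 group. Shares of genes with few reads, such as Rps24 and Rpl10, are of low precision at this depth.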
